A study of Mus musculus with 8 samples.

Results

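Cav1, Cav2, Anxa1 and S100a6 encode proteins that sit at or bind to the cell membrane, and their RNA was followed through 4 sorted fractions of mouse embryonic stem (ES) cells. The members are the 2 caveolin genes, 1 annexin gene and 1 S100 gene. A gene was included if the table that the study published with its arrays pairs a probe with its symbol. Each of the 4 symbols was paired with 1 probe, out of 1998 probes named in the copy of that table used here, 29484 probes tested and 42006 distinct probes on the array. The table lists probes that the study had found to differ among these same fractions, so the fact that a named gene differs among them is not independent evidence.

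The cells were HV ES cells of strain 129/Ola (HIV in the sample labels), in which a cassette of Hex cDNA, an internal ribosome entry site and the fluorescent protein Venus had been knocked in at the Hex locus. Hex is a transcription factor of early endoderm, so Venus reports activity of that locus, and the parent line of all samples also expressed the bacterial BirA ligase from the ROSA26 locus. Each of the 2 clones, 5.1 and 16.1, is 1 cell line, and both were grown on for 24 h under self-renewing conditions with leukaemia inhibitory factor (LIF) before the sort. The cytometer read Venus (V) and SSEA-1 (S), a surface carbohydrate of undifferentiated ES cells, and sorted each clone into V-S+, V+S+, V-S- and last V+S- cells, 8 samples in all and 2 per fraction. The text that accompanies every sample repeats the V-, S+ fraction and leaves out V+, S-, and the sample titles, which name all 4 fractions, were used here. Nothing in the sources used here says whether the fractions of a clone came from more than 1 sort, so p-values measure the spread between these samples.

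Caveolins are hairpin-shaped membrane proteins that, with the cavin coat, form the small flask-like pits of the plasma membrane called caveolae. Caveolin-1, the product of Cav1, is the main structural protein of the pits outside muscle, and caveolin-2, the product of Cav2, forms hetero-oligomers with it. Annexins such as annexin A1 (Anxa1) bind acidic phospholipids when calcium rises, and S100 proteins such as S100A6 (calcyclin) are small EF-hand calcium sensors, several of which bind annexins. Caveolae and annexins are abundant in mesenchymal, endothelial and epithelial cells, and primitive endoderm, the lineage that the sort was designed to reach, is an epithelium that lies on a basement membrane.

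The array probes are what was read, so the start of each is given first. The 30 bases at the 5′ end of each 60-base probe, as the scanner files list them, are as follows. The files list all 4 probes as unmapped, and the position of a probe within its transcript was not determined.
Cav1 probe: gtgttccaagacatgtctgttctccctaga
Cav2 probe: ttgatggtaatcataaaagaaacatttcaa
Anxa1 probe: tgacatgaatgaaatcaaagtattttacca
S100a6 probe: gccttggctttgatctacaatgaagctctg
The probes had GC contents of 38.3% for Cav1, 35% for Cav2, 35% for Anxa1 and 43.3% for S100a6. Because probes differ in how well they bind, ratios are compared between samples for 1 probe, and never between genes.

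The promoters of the members, each 250 bases before and 50 after an annotated start, are shown because the 4 genes moved together across the fractions. They are RefSeq sequences of the build GRCm38.p6, which is a C57BL/6J genome and not that of the 129/Ola cells. Capitals mark matches on either strand to any of 4 motifs, with AP-1 searched as TGANTCA, TEAD as GGAATG, the GATA factors as AGATAA and the GC box as GGGCGG. Of 32851 promoters of the same length, 7.8% held the AP-1 letters, 14.7% the TEAD letters, 11.2% the GATA letters and 35.7% the GC box letters.
Cav1, chr6:17306085-17306384, + strand: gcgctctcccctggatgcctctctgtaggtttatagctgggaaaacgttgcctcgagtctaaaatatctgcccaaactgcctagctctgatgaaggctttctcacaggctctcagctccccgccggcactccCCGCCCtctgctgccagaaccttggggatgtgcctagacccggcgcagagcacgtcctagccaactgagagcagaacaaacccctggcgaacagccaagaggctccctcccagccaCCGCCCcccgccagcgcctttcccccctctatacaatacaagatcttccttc
Cav2, chr6:17280935-17281234, + strand: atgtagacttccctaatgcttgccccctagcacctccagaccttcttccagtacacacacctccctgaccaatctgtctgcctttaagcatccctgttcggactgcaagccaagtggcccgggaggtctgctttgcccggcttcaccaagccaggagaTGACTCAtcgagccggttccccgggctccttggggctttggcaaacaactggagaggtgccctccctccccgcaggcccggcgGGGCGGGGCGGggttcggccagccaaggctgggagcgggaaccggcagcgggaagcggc
Anxa1, chr19:20390622-20390921, - strand: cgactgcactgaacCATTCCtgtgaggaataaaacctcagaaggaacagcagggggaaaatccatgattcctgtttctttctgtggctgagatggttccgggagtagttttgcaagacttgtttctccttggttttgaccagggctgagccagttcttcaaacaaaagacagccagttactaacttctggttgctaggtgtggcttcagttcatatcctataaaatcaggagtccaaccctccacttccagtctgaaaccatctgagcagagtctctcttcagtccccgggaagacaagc
S100a6, chr3:90612644-90612943, + strand: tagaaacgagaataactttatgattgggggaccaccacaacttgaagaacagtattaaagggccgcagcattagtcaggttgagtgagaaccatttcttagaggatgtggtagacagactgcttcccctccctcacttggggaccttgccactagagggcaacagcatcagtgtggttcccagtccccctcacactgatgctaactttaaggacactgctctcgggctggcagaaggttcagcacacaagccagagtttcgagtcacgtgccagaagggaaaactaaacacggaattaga
No single motif was found in all 4 windows. The Cav1 window held 2 GC box matches, and the window of a further annotated Cav1 start held no match. The Cav2 window held 1 AP-1 match, which began 92 bases before the start, and 2 overlapping GC box matches, whose shared bases are printed once. The Anxa1 window held 1 TEAD match on the opposite strand, and the S100a6 window held none of the 4 motifs. A match is a run of letters and not evidence of binding.

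Both caveolin windows were rich in CpG dinucleotides, with 13 in the Cav1 window and 16 in the Cav2 window against a median of 7 over all promoters. The Anxa1 window held 3 and the S100a6 window 6. In the annotation, Cav2 and Cav1 are neighbours on chromosome 6, followed by Met, the receptor for hepatocyte growth factor. S100a6 lies on chromosome 3 among its own family, with 12 S100 genes among the 16 protein-coding genes nearest to it, 8 on each side, and Anxa1 lies on chromosome 19 before the retinaldehyde dehydrogenase gene Aldh1a1.

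Cy3-labelled RNA of every sample shared its array with a Cy5-labelled common reference, a pool of RNA from cultured mouse cell lines that include fibroblasts, myoblasts and lung macrophages, with no dye swap. The values that follow are log2 ratios, Cy3 over Cy5, of 1 probe after background correction and loess normalization within the array, averaged over 2 repeat scans. A ratio under 0 says that the normalized signal of the sample was below that of the reference. Without a dye swap, the level of a ratio cannot be told apart from an effect of the dyes. The 4 fractions of clone 5.1 shared a slide and those of clone 16.1 another, so that clone and slide cannot be told apart here. The median Cy3 signal over local background was between 2.36 and 2.87 per sample, no spot was flagged as saturated in either channel, and the number of arrays limits the precision.

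The 4 member probes were well above background in both channels of all 16 scanner files. Over the samples, Cy3 signal stood between 12.7 and 116 times background for Cav1, 40.2 and 246 times for Anxa1 and 360 and 1200 times for S100a6. The Cav2 probe was dim, with Cy3 signal between 1.98 and 7.82 times background. Repeat scans of a sample differed by at most 0.15 on the log2 scale for any member.

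Cav1 RNA was lowest in the V- fractions and highest in V+S-. The V-S+ samples had log2 ratios of -5.42 (clone 5.1) and -4.98 (clone 16.1), and the V-S- samples had -5.63 and -5.03 in the same order. The V+S+ samples had -4.87 and -3.86, and the V+S- samples had -3.45 and -2.81. Both V+S- samples were above the other 6, and both V+S+ samples were above all 4 V- samples.

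Cav2, its partner gene, followed the same order of fractions. Its log2 ratio was -3.98 and -3.81 in V-S+, for clones 5.1 and 16.1, and -4.02 and -3.79 in V-S-. The V+S+ samples stood at -3.52 and -3.03, and the V+S- samples at -2.79 and -2.38. The V-S+ and V-S- samples overlapped, and the V+ fractions stood above them in both clones.

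Anxa1 was highest in V+S-, with log2 ratios of 0.01 (clone 5.1) and -0.04 (clone 16.1). The V+S+ samples were at -0.99 and -0.55 and the V-S+ samples at -1.68 and -1.48. Anxa1 was lowest in V-S-, at -2.23 and -1.98.

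S100a6 had log2 ratios of -2.71 and -2.58 in V-S+ and of -2.75 and -2.77 in V-S-. The V+S+ samples were at -2.10 and -1.98, and the V+S- samples at -1.5 and -1.29. The SD over the 2 samples of a fraction was between 0.01 and 0.15 for S100a6, 0.03 and 0.31 for Anxa1, 0.12 and 0.35 for Cav2, and 0.30 and 0.71 for Cav1.

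**Figure D1:**
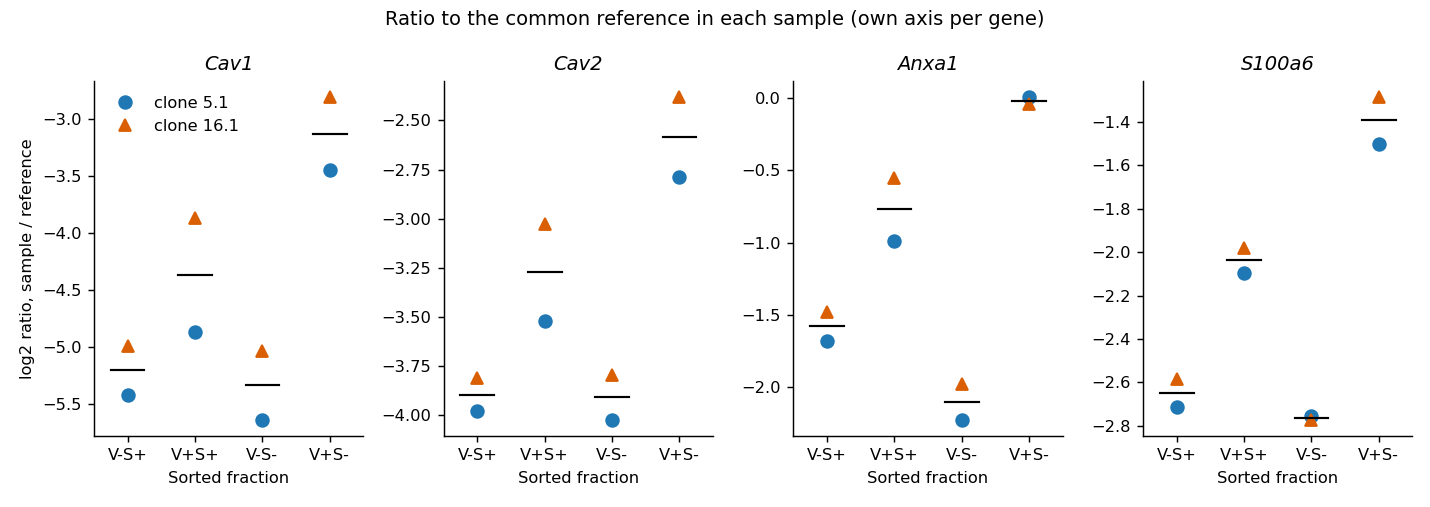
Log2 ratio of sample to reference (vertical axis, on its own scale for each gene) for Cav1, Cav2, Anxa1 and S100a6 in the 4 sorted fractions (horizontal axis). Circles are clone 5.1, triangles are clone 16.1 and bars are means of the 2 samples; for all 4 genes both V+S- samples lie above the other 6, and both V+S+ samples lie between those and the 4 V- samples.

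The order was shared: for 4 of 4 members both V+S- samples lay above the other 6, and both V+S+ samples lay above all V- samples and below both V+S- samples. Of 29484 probes, 4352 (14.8%) had the first pattern and 1893 (6.42%) had the second. In RNA from a sorted population, more RNA per cell and a greater share of cells that hold the RNA cannot be told apart.

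The comparison of V+S- with V-S+ sets the fraction with Venus and without SSEA-1 against the undifferentiated fraction. All 4 members were higher in V+S-. A difference was called at a false discovery rate of 0.05 (limma with Benjamini-Hochberg adjustment over all probes tested) with a minimum change of 1.5-fold, which 4 of 4 members passed, where 5.73% of all probes were called higher. Cav1 was 4.21-fold higher, a log2 difference of 2.07 (SE 0.40, limma adjusted p = 0.0257), and the difference was 1.97 in clone 5.1 and 2.18 in clone 16.1. Anxa1 was 2.96-fold higher (log2 difference of 1.56, SE 0.16, limma adjusted p = 0.0122), at 1.69 and 1.44 in the clones. Cav2 was 2.48-fold higher (log2 difference of 1.31, SE 0.20, limma adjusted p = 0.0177) and S100a6 2.39-fold higher (log2 difference of 1.25, SE 0.10, limma adjusted p = 0.0113). The median over the members was 1.44 on the log2 scale, beside 0.01 over all probes tested. The split of all calls in this comparison depended on the scaling, with 1688 probes higher and 377 lower here, 1342 and 683 with the Cy3 channel alone, and 1210 and 522 of 18305 probes with the authors' log10 values.

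Against V-S-, the fraction that lacks both marks, V+S- was again higher for all members. Called higher were 4 of 4 members and 6.3% of all probes. The log2 difference was 2.20 for Cav1 (SE 0.40, limma adjusted p = 0.0211) and 2.09 for Anxa1 (SE 0.16, limma adjusted p = 0.00839). It was 1.32 for Cav2 (SE 0.20, limma adjusted p = 0.0162) and 1.37 for S100a6 (SE 0.10, limma adjusted p = 0.00839). These are folds of 4.61, 4.25, 2.5 and 2.58, and both comparisons use the same V+S- samples. Over the array 1858 probes were called higher and 440 lower here, 3744 and 139 when arrays were centred on their median and not by loess, 1611 and 891 with the Cy3 channel alone, and 1375 and 606 of 18305 with the authors' log10 values.

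With only 2 samples per fraction, calls across the whole array rested on single samples. No member was called in V+S- against V-S+ without V+S- of clone 16.1 or without V-S+ of either clone, fits in which at most 2 of the 29484 probes were called. Without V+S- of clone 5.1 or V-S- of either clone 3 were called, Cav1 being lost, among 1194 and 960 probes called, in place of 1688 higher and 377 lower with all samples. In V+S- against V-S-, 0 members were called without V+S- of clone 16.1 or V-S- of either clone, fits that called 0 of the 29484 probes, and 4 without any other sample, among 1282 to 2841 probes called. The differences themselves moved less. With each sample left out, that from V-S+ lay between 1.75 and 2.39 for Cav1, 1.11 and 1.52 for Cav2, 1.46 and 1.66 for Anxa1, and 1.15 and 1.36 for S100a6. All 4 members had an unadjusted limma p under 0.05 in each of these fits. With clone as a block, which compares fractions within each cell line, 4 members were called in both comparisons (8.87% of probes higher than in V-S+ and 8.96% higher than in V-S-) with all samples and with any sample left out. The Cav2 differences grew to 1.88 and 2.05 when the signals processed by the scanner software were used in place of those corrected here.

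V+S+ against V-S+ asks whether the genes were already higher in cells that have Venus and still have SSEA-1. The log2 differences were 0.84 for Cav1, 0.62 for Cav2, 0.81 for Anxa1 and 0.61 for S100a6, with limma adjusted p between 0.142 and 0.314. The difference of Cav1 was 0.33 without V+S+ of clone 16.1 and 1.34 without V+S+ of clone 5.1. That of Cav2 was 0.38 without V+S+ of clone 16.1 and 0.99 with the authors' log10 values. No member and 0 of all probes (0% higher) were called, although 5514 probes had an unadjusted p under 0.05. With clone as a block, 4 of 4 members were called, with limma adjusted p between 0.00405 and 0.0077, where 3.87% of probes were called higher. That count was 1 without V-S+ of clone 16.1 and 3 without V+S+ of clone 16.1, where 583 and 659 probes were called in either direction, and 4 with any other sample left out, with 1502 to 2739 probes called.

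The size of this step differed between the clones for Cav1. From V-S+ to V+S+ Cav1 differed by 0.55 (clone 5.1) and 1.12 (clone 16.1), or 27.9% and 51.5% of the log2 difference between V-S+ and V+S- in the same clone. For Cav2 the shares were 38.6% and 54.9%, and for Anxa1 41% and 64.5%. For S100a6 they were 50.9% and 46.5%, the one member whose share was not higher in clone 16.1. With 1 value per clone these shares have no test.

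V+S- was also above V+S+ in both clones for all members. The log2 differences were 1.24 for Cav1, 0.69 for Cav2, 0.75 for Anxa1 and 0.64 for S100a6, with limma adjusted p between 0.103 and 0.241. Without V+S+ of clone 5.1 the difference of Cav1 was 0.74 and that of Cav2 0.44. No member was called and 0% of probes were called higher, with 4429 probes at an unadjusted p under 0.05. With clone as a block 4 members were called, with limma adjusted p between 0.00768 and 0.0133, where 1.75% of probes were called higher. This count was 0 without V+S- of either clone, where 0 probes were called, and 1 without V+S+ of clone 5.1, where 120 were. It was 4 with any other sample left out, with 609 to 1015 probes called.

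V-S- against V-S+ isolates the loss of SSEA-1 in cells without Venus, and no member had a higher mean in V-S- there. The log2 differences were -0.13 for Cav1 (95% interval of -1.09 to 0.83), -0.01 for Cav2 (-0.51 to 0.48), -0.52 for Anxa1 (-0.92 to -0.13) and -0.11 for S100a6 (-0.35 to 0.12). With arrays centred on their median and not by loess, they were -0.34, -0.16, -0.73 and -0.36 in the same order. The median of all probes was then -0.12. The authors' log10 values gave -0.18 for Cav2. No member was called with or without the block, and 0% of probes were called higher in either, with 834 probes at an unadjusted p under 0.05 without the block. The interval of Anxa1 lay below 0, with a difference of -0.55 for clone 5.1 and -0.50 for clone 16.1, but its limma adjusted p was 1, and 0.379 with the block.

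**Figure D2:**
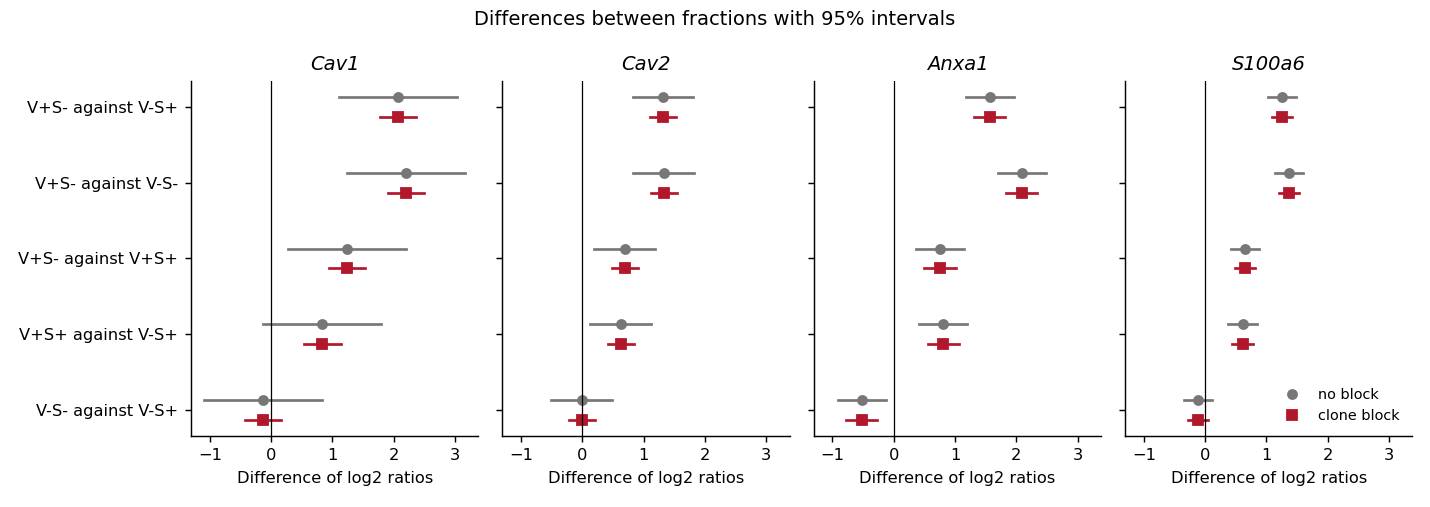
Difference of log2 ratios (horizontal axis) for the 5 comparisons of fractions, 1 panel per member, with 95% intervals from the limma fit without a block (grey circles) and with clone as a block (red squares). The 4 members lie between 1.25 and 2.20 in the first 2 comparisons, between 0.61 and 1.24 in the next 2, and between -0.52 and -0.01 in V-S- against V-S+.

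The Venus difference (V+ less V-) was larger among S- than among S+ cells for each member, by 1.37 for Cav1, 0.70 for Cav2, 1.28 for Anxa1 and 0.76 for S100a6 on the log2 scale. Without V+S+ of clone 5.1 these were 0.87 for Cav1 and 0.46 for Cav2, and the authors' log10 values gave 1.06 for Cav2. In the fit without a block this contrast was called for none of them (limma adjusted p between 0.567 and 0.629), nor for any probe (0%), with 2340 probes at an unadjusted p under 0.05. With clone as a block, Cav1, Anxa1 and S100a6 each had a limma adjusted p of 0.0357, and Cav2 had 0.0604, where 0.899% of probes were called in this direction. The count of 3 members fell to 0 without any one of 7 samples, where at most 1 probe was called, and was 4 without V+S+ of clone 16.1, where 1033 probes were called.

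Over all 4 fractions, the moderated F-test passed 3 of 4 members and 7.38% of probes, with Cav1 at a limma adjusted p of 0.0526, and with the block 4 members and 43.5% of probes. The table that names the genes was chosen by a test of this kind on these arrays, so these counts are a description.

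Clone 16.1 held more Cav1 RNA than clone 5.1 in every fraction. The difference averaged 0.67 on the log2 scale, a 1.59-fold change (SE 0.09, limma adjusted p = 0.00425), and ranged from 0.43 in V-S+ to 1.00 in V+S+. Cav1 was the only member called, where 1.39% of probes were called higher in clone 16.1, and it was not called with either V+S+ sample left out, when 263 probes were called higher in place of 411. The differences were 0.32 for Cav2 (limma adjusted p = 0.0133, below 1.5-fold), 0.21 for Anxa1 and 0.11 for S100a6. Since each clone lay on its own slide, this is a difference between slides as well. Each clone is a single cell line, so its fractions are not independent replicates of the clone. The SE and limma p measure how steady the offset was across fractions, not the spread between clones.

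The related families were described from lists of 72 genes: other caveola and raft proteins, annexins, S100 proteins, and C2-domain proteins with other partners of the membrane and of calcium. The copy of the published table used here names 20 of these, all with a tested probe. In V+S- against V-S+, 16 of the 20 were called higher and 1 lower, where 5.73% and 1.28% of all probes were. In V+S- against V-S-, 16 were called higher and 0 lower (6.3% and 1.49% of all probes). The table holds only probes that the study selected for differing among these fractions, so a high share among its names is not informative about the families. The median of the 20 was 0.89 on the log2 scale against V-S+ and 1.01 against V-S-, beside 0.01 over all probes in each. No related gene was called in the other 3 comparisons of fractions. With clone as a block, 8 of the 20 were called higher and 1 lower in V+S+ against V-S+ (3.87% and 1.75% of probes), 3 higher in V+S- against V+S+ (1.75% of probes), and 0 in V-S- against V-S+.

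Only 1 gene of the caveola list of 19, Ptrf, could be named. Ptrf encodes cavin-1, the coat protein that caveolae need along with caveolin-1. For clones 5.1 and 16.1 its log2 ratios were -1.77 and -1.51 among V-S+ cells, -1.90 and -1.67 among V-S-, -1.20 and -0.76 among V+S+, and -0.85 and -0.55 among V+S- cells. V+S- exceeded V-S+ by 0.94 (SE 0.19, limma adjusted p = 0.0275) and V-S- by 1.09 (limma adjusted p = 0.0194). Its V+S- value was above its V+S+ value in each clone, with a log2 difference of 0.28 that was not called (limma adjusted p = 0.557, and 0.0463 with the block, below 1.5-fold).

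The 4 annexins with a name, besides Anxa1, were all called higher in V+S- in both comparisons. Anxa3 rose by 1.85 against V-S+ and 2.04 against V-S-, and Anxa5, whose product is used as a stain for exposed phosphatidylserine, by 1.65 and 1.82. Anxa2, which forms a tetramer with S100A10, rose by 0.86 and 1.12, and Anxa4 by 0.72 and 0.73. Limma adjusted p lay between 0.00839 and 0.0275. In V+S+ against V-S+, the 4 differences lay between 0.54 and 1.42 with none called, and 3 were called with the block. From V-S+ to V-S- their differences lay between -0.26 and -0.002, with none called.

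For Anxa3, Anxa2 and Anxa4 most of the difference lay between V-S+ and V+S+, not between V+S+ and V+S-. These steps were 1.42 and 0.43 for Anxa3, 0.62 and 0.24 for Anxa2, and 0.54 and 0.19 for Anxa4. For Anxa5 they were 0.62 and 1.03, with the larger step last. The log2 ratio of Anxa3 in clone 16.1 was -1.29 among V-S+ cells, 0.35 among V+S+ and 0.56 among V+S- cells. In clone 5.1 the same 3 values were -1.77, -0.57 and 0.09. The samples of Anxa3 in V+S+ and V+S- overlapped between clones, and within each clone V+S- was the higher.

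Of the 6 other S100 genes with a name, S100a3, S100a4, S100a10 and S100a11 were called higher in V+S- in both comparisons. S100a4, known as a metastasis-associated S100 protein, rose by 1.1 against V-S+ and 1.12 against V-S-. S100a11 rose by 1.08 and 1.11, S100a10, the partner of annexin A2, by 0.89 and 1.06, and S100a3 by 0.64 and 0.78. S100a7a and S100a14 were not called. S100a14 had the opposite sign, with differences of -0.41 and -0.59 (limma adjusted p of 0.133 and 0.0553). Its limma adjusted p against V-S- was 0.00481 with clone as a block and it was called lower, where 3.32% of probes were.

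S100a4 went from log2 ratios of -8.61 and -8.42 in V-S+ to -7.54 and -7.29 in V+S-, and its V+S- samples stood above the other 6. S100a14 went from 0.69 and 0.68 in V-S+ to 0.46 and 0.09 in V+S-, and its lowest sample was V+S+ of clone 16.1 at -0.08.

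Among the 9 named genes of the last list, 7 were called higher in both comparisons. Capn2, the large subunit of a calcium-activated protease, rose by 1.56 against V-S+ and 1.72 against V-S-. Ahnak and Ahnak2, giant scaffold proteins of which AHNAK binds the annexin A2 and S100A10 complex, rose by 0.87 and 0.85, and by 1.08 and 1.15. Fer1l3 (myoferlin, a C2-domain protein of membrane repair) rose by 0.99 in both comparisons, Msn (moesin, a linker of membrane and actin) by 0.99 and 1.04, Cpne2 (a copine) by 0.90 and 0.81, and Cd151 (a tetraspanin) by 0.69 and 0.82.

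The list also held 2 genes with the opposite sign. Cpne9, another copine, fell by 0.86 on the log2 scale against V-S+ (SE 0.20, limma adjusted p = 0.0392), and its difference from V-S- was -0.72 (limma adjusted p = 0.0556, and 0.0101 with clone as a block, which called it lower). Cacybp, which encodes the calcyclin-binding protein, a partner of S100A6, had differences of -0.52 and -0.42, below 1.5-fold, with limma adjusted p of 0.0234 and 0.0344. S100a6 and the gene of its binding protein therefore had opposite signs in the same samples.

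Fer1l3 did not follow the order of the members. Its log2 ratios were -1.75 and -1.74 for V-S+, -1.73 and -1.81 for V+S+, but -0.60 and -0.92 for V+S-, so that V+S+ overlapped V-S+ and only V+S- stood apart. Capn2 had the pattern of the members, with -1.43 and -1.20 for V-S+, -0.42 and 0.00 for V+S+, then 0.14 and 0.36 for V+S-. Over the 20 related genes, 13 had both V+S- samples above all others (14.8% of all probes), and 10 had V+S+ in between as well (6.42% of all probes).

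**Figure D3:**
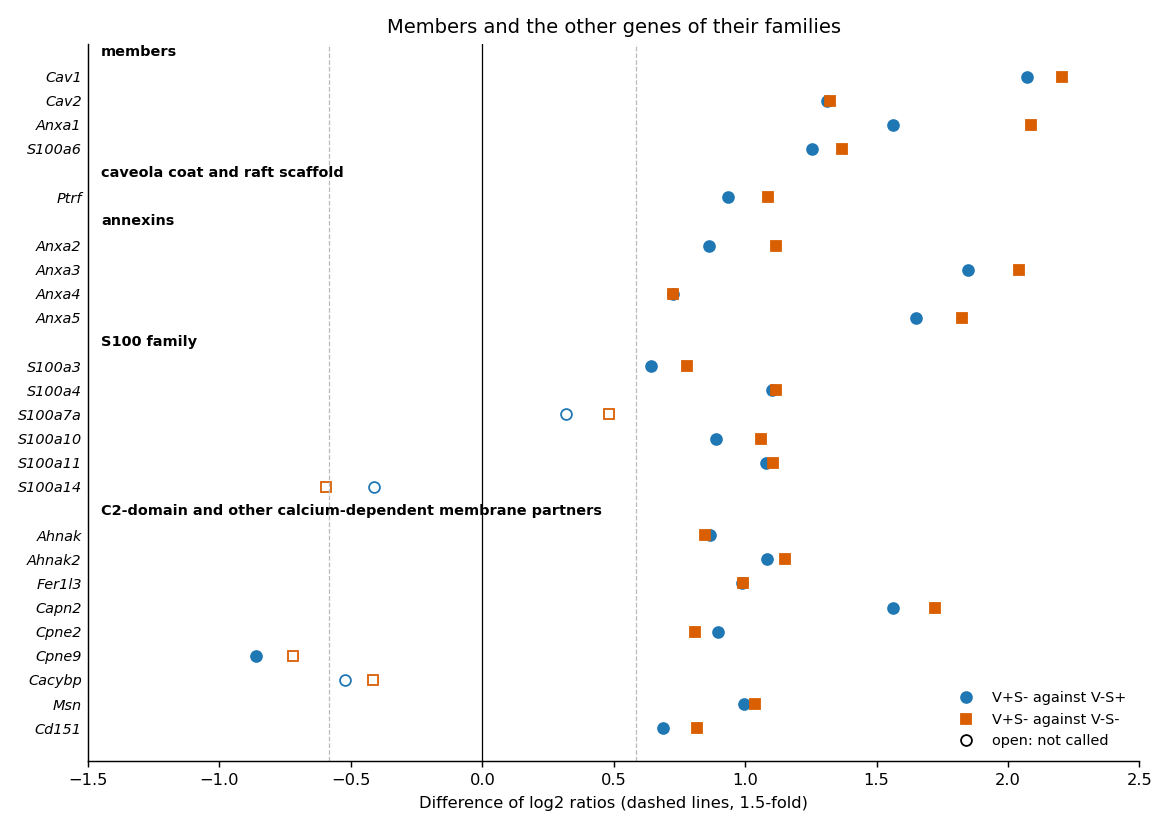
Difference of log2 ratios (horizontal axis) for the 4 members and the 20 related genes with a name, grouped by list, in V+S- against V-S+ (blue circles) and V+S- against V-S- (orange squares). Filled symbols passed the false discovery rate of 0.05 and 1.5-fold (dashed lines); the members lie between 1.25 and 2.20, and only S100a14, Cpne9 and Cacybp lie left of 0.

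Markers of cell types that can hold caveolae or annexins moved with the members. Their names come from the same table of selected probes, so their shares are no independent evidence, and 5.73% and 6.3% of all probes were called higher in V+S- against V-S+ and V-S-, 1.28% and 1.49% lower. Of 9 named primitive endoderm genes, 8 were called higher in V+S- against V-S+ and 8 against V-S-, and their mean log2 ratio was between -1.48 and -1.30 in V-S+ and between -0.34 and -0.27 in V+S-. Of 6 named fibroblast and mesenchymal genes, 4 were called higher against V-S+ (6 with the block) and 6 against V-S-, with a mean ratio between -3.01 and -2.59 in V-S+ and between -1.51 and -0.95 in V+S-. All 6 were well above background in all samples, Vim, Postn and Col1a2 among them. The methods describe culture on gelatin, and which cells held these RNAs was not tested.

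The 4 named trophectoderm genes were called higher in both comparisons, with mean ratios between 0.24 and 0.39 in V-S+ and between 1.28 and 1.45 in V+S-. No gene of the endothelial list of 6 could be named. Of 7 named genes of undifferentiated ES cells, 5 were called lower in each comparison (6 with the block, beside 3.02% and 3.32% of probes), and their mean ratio went from between 1.24 and 1.26 in V-S+ to between 0.14 and 0.39 in V+S-. The V+S+ means of all 4 lists lay between those of V-S+ and V+S- in both clones. For clones 5.1 and 16.1 they were -1.14 and -0.74 for primitive endoderm, -2.63 and -1.92 for fibroblast and mesenchymal genes, 0.72 and 0.96 for trophectoderm, and 0.79 and 0.32 for undifferentiated ES cells. Single genes did not all follow these means. Among ES cell genes, Pou5f1 was higher in V+S+ (2.25 and 1.71) than in V-S+ (1.99 and 1.54). Rhox5 was lower in V+S+ (-0.42 and -1.34) than in V+S- (0.29 and -0.61). The part of a change in cell makeup in the member differences was not tested.

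Across the 8 samples, the members' ratios were correlated, though many probes followed a member more closely than its fellow members did. Pearson's r of the log2 ratios was 0.99 for Cav1 with Cav2, 0.97 for Anxa1 with S100a6 and 0.97 for Cav2 with S100a6. It was between 0.94 and 0.95 for the other 3 pairs. Among the 29483 other probes, ranked by r with Cav1, Cav2 was in place 75, S100a6 in place 1840 and Anxa1 in place 2434. For Cav2, S100a6 was in place 923 and Anxa1 in place 2232, and for Anxa1, S100a6 was in place 277. These are descriptions over 8 samples that share fractions, clones and slides. The probes most like Cav1 among those tested were those of Gria3 (an AMPA receptor subunit), Tshz1 (a zinc finger homeobox gene) and Tnfaip6 (a secreted hyaluronan-binding protein), with r of 0.998, 0.998 and 0.997 and V+S- above V-S+ by 0.91, 1.38 and 1.48. The probe most like Anxa1 that has a name was that of OTTMUSG00000015762. The 3 probes most like Cav2, the 3 most like S100a6 and the 2 others most like Anxa1 have no name in the table.

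**Figure D4:**
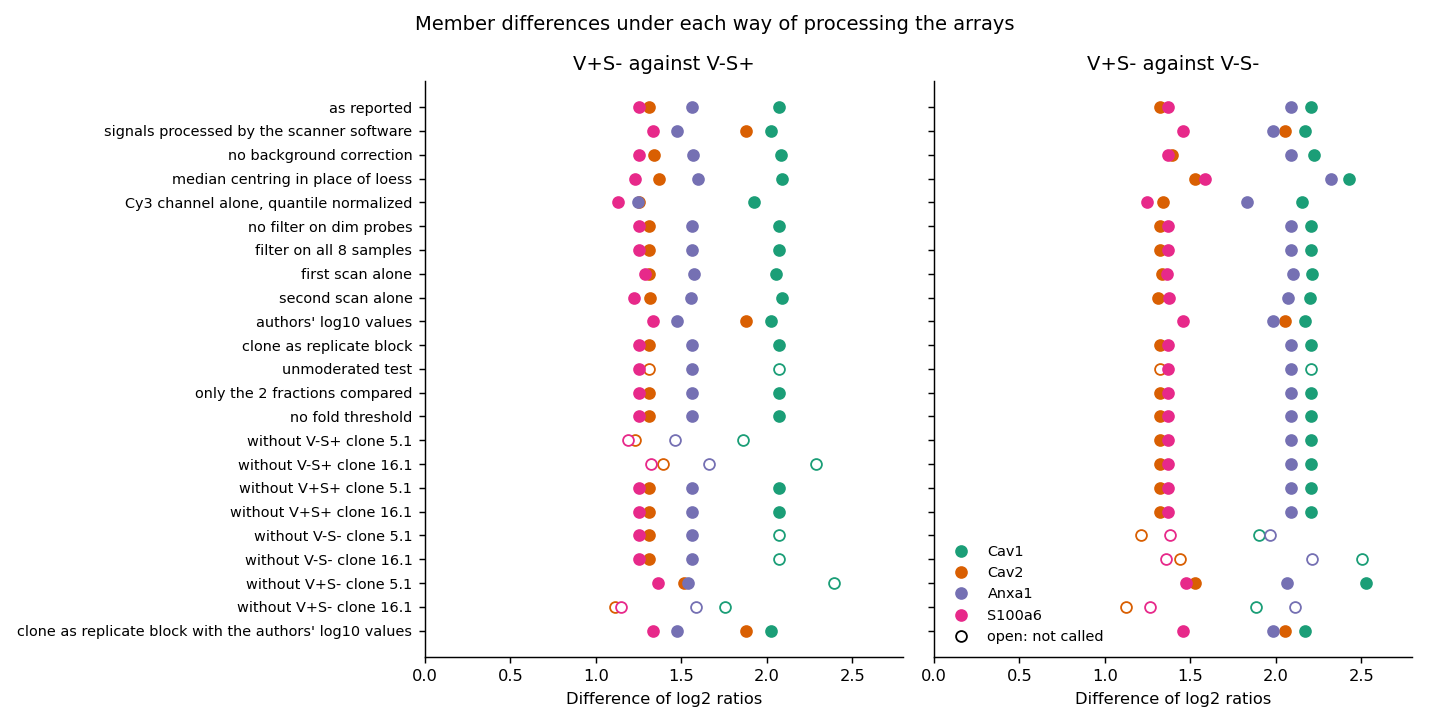
Difference of log2 ratios (horizontal axis) of the 4 members in V+S- against V-S+ (left) and V+S- against V-S- (right) under each way of processing the arrays (rows); filled points were called. No point lies below 0; open points appear for the unmoderated test and for some samples left out, and Cav2 moves to 1.88 and 2.05 with the scanner software's signals or the authors' log10 values.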

How the data were processed

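The authors deposited 16 scanner files with the intensity of 43451 spots in both channels, each array scanned 2 times, along with their own processed log10 values of 25164 probes. Once centred by row, these log10 values matched the ratios that the scanner software (Agilent Feature Extraction 9.5.1.1) had processed (r = 1, slope 1), and their column medians lay between 2.31 and 2.34; the level and centring of each probe stay unknown. The array design number in the file headers is not that in the methods. Intensities were corrected by normexp (offset 50) and loess-normalized (limma 3.58.1, R 4.3.3), control spots were given no weight, spots flagged as outliers were dropped, and scans were averaged. Of 42006 distinct probes, 29495 were flagged well above background in Cy3 in every file of 1 fraction or more; 11 lacked a value and 29484 were tested. All 8 samples entered 1 model with fraction as its term (lmFit, eBayes), on the log2 scale.

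All fractions of a clone come from 1 cell line, which pairs the samples. Deviations of the clones from the fraction means correlated across probes, for 6 fraction pairs, at r of 0.59 to 0.81, and clone was run as a block beside the main model.

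The members, the related lists and the markers were chosen with earlier results of these data known. The genes named were the members, the related genes called in V+S- against V-S+ or V-S-, and the 3 probes most correlated with each member; S100a14, S100a7a, Cacybp and the marker genes Vim, Postn and Col1a2 were named after their values were seen. Symbols came from 1998 of the 2169 rows of the study's probe table, whose other columns were not used. The model was tested on simulated data, and the outcome is not given here. Alternatives were other signals, normalizations, filters, scans, the authors' log10 values, the block, an unmoderated test, no fold threshold, the 2 fractions alone, and each sample left out. The block with the authors' values, and samples left out of the block model, were added after seeing the data.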

Additional observations from a re-analysis of the deposited data

Results flagged for a closer look

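For Cav1, Anxa1 and S100a6 the Venus difference was larger among S- than among S+ cells in the limma fit with clone as a block, by 1.37, 1.28 and 0.76 on the log2 scale, each higher in 2 of 2 clones (limma adjusted p = 0.0357 for each). Without the block the limma adjusted p was between 0.567 and 0.629. With the block and the authors' log10 values none of the 3 was called (limma adjusted p of 0.129 for Cav1). In the same 3 genes the difference of S- less S+ had opposite signs in V- and in V+ cells, in both clones. For Cav1 it was -0.13 in V- and 1.24 in V+ cells, for Anxa1 -0.52 and 0.75, and for S100a6 -0.11 and 0.64. The difference between these was tested only by the contrast above, which is the same quantity. For Cav1 and S100a6 the sign in V- cells was not settled. Without the block, their 95% intervals there ran from -1.09 to 0.83 and from -0.35 to 0.12, against -0.92 to -0.13 for Anxa1. The V- value of Cav1 turned positive without V-S+ of clone 16.1 (0.08) and without V-S- of clone 5.1 (0.17).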

How the results depend on the processing

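Every member kept its direction in V+S- against V-S+, V-S- and V+S+, and in V+S+ against V-S+, under the alternatives run. Over these, the V+S- less V-S+ difference ranged from 1.75 to 2.39 for Cav1, 1.11 to 1.88 for Cav2, 1.25 to 1.66 for Anxa1 and 1.13 to 1.36 for S100a6, with limma adjusted p from 0.000311 to 0.135. With clone as a replicate block, 4 members were called in V+S- against V+S+, 4 in V+S+ against V-S+ and 3 in the contrast of Venus differences, in place of 0. With the block and the authors' log10 values these counts were 3, 4 and 0. The calls over all probes in that fit are not given here, so the counts say nothing particular to the members. The block did not change the member counts in V+S- against V-S+ or V-S-, or in V-S- against V-S+. The comparison of clones holds the clone term with or without the block, so its count could not change. The unmoderated test called 2 members in V+S- against V-S+ and 2 against V-S-, 0 in the overall test and 0 between clones, and 8 and 9 related genes, where it called 306 and 316 probes higher over the array in place of 1688 and 1858. The unmoderated calls over all probes in the overall test and between clones are not given here. Without a fold threshold 2 members were called between clones. The matching count over all probes is not given here, but 11688 of them had an unadjusted limma p under 0.05 in that comparison. In V-S- against V-S+, where no member was called, the sign turned for Cav1 without V-S+ of clone 16.1 (0.08) and without V-S- of clone 5.1 (0.17), and for Cav2 in these fits (0.07 and 0.10) and in the second scan alone (7e-04). The cause was not tested.

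With each sample left out in turn, the members called were between 0 and 4 in V+S- against V-S+, in V+S- against V-S- and in the overall test, 0 and 1 between clones, and 0 in V+S- against V+S+, V+S+ against V-S+, V-S- against V-S+ and the contrast of Venus differences. In V+S- against V-S+ or V-S-, every fit that called 0 members called at most 2 of the 29484 probes, and in the overall test 0 probes. Related genes called were between 0 and 17 in V+S- against V-S+ and between 0 and 18 against V-S-. With the block, members called were 4 in V+S- against V-S+ and V-S-, between 0 and 4 in V+S- against V+S+, 1 and 4 in V+S+ against V-S+, 0 in V-S- against V-S+, and 0 and 4 in the contrast. In V-S- against V-S+ the fits without a block put Cav1 between -0.43 and 0.17 and Cav2 between -0.13 and 0.10. A lone sample left in a fraction is assumed to vary like the others.

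Median centring in place of loess moved the median of all probes in V+S- against V-S- to 0.13 and in V-S- against V-S+ to -0.12, and its calls in V+S- against V-S- were 3744 higher and 139 lower, in place of 1858 and 440. With the Cy3 channel alone they were 1611 and 891, and with the authors' log10 values 1375 and 606 of 18305 probes. The depth limit bears on Cav2, whose Cy3 signal was as low as 1.98 times background.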
